A study of Mus musculus with 9 samples.

Results

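Acute phase and antimicrobial secreted proteins were followed in bone marrow-derived macrophages exposed to the extracellular matrix protein tenascin C (TNC), with or without inhibition of Toll-like receptor 4 (TLR4). The set holds 9 named genes: Saa3, Lcn2, Hp, Cp, Ptx3, Slpi, S100a8, S100a9 and Camp. Their members on the array were all probe sets (groups of short probes against the same transcript) that the platform annotation assigns to exactly 1 of these symbols, which gave 17 probe sets of 45037 and 9 genes of 18193. Each gene had 1 probe set except Cp, with 8, and Ptx3, with 2.

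The data are 9 Affymetrix mouse expression arrays, 3 for each of 3 groups. All cells were macrophages grown from bone marrow of BALB/c mice aged 8 to 10 weeks by 7 days of culture in M-CSF, a macrophage growth factor, and 10% FBS, followed by a night in 1% FBS with M-CSF. The labels put M-CSF at 20 µg/ml in both steps, whereas the methods of the study state a lower concentration for the growth culture. The TNC + TLR4i group received 3 µM of TAK-242, a small molecule inhibitor of TLR4 signaling, for 1 h, and then 2 µg/ml TNC for 6 h. The TNC + vehicle group received 0.1% DMSO for 1 h and then the same TNC exposure. The untreated group received neither, and no vehicle is stated for it. No group with vehicle alone or inhibitor alone was analysed here, so an effect of either without TNC cannot be told apart from the rest. Arrays of a group are biological replicates per the labels, which do not state whether each came from its own mouse or its own culture, and p-values measure the spread between them.

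Acute phase proteins are secreted in quantity during inflammation. The liver makes most of those found in blood, under the control of interleukin-6, interleukin-1 and tumor necrosis factor acting through STAT3, NF-κB and C/EBP transcription factors, while macrophages and epithelia make a local share. Some of these proteins bind bacterial iron carriers, copper or hemoglobin (Lcn2, Cp, Hp), or zinc and manganese (S100a8, S100a9). In this way they limit what microbes and oxidants can use. Some are soluble pattern recognition molecules or lipid carriers (Ptx3, Saa3), and others act on proteases and microbes directly (Slpi, Camp). TLR4, the receptor for bacterial lipopolysaccharide, can also be engaged by TNC.

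All values below are log2 signals after robust multi-array averaging (RMA), so a difference of 1 is a doubling. Array medians over all probe sets were between 6.72 and 6.74. The values carry no detection call, so whether a signal near that level is above background is not known. All 9 measured macrophage markers lay above the array median on every array. The mean level over neutrophil markers (9 of 12 measured, Ly6g not among them) was 7.11 to 7.14 in TNC + TLR4i arrays, 7.15 to 7.32 in TNC + vehicle arrays and 7.12 to 7.32 in untreated arrays. Fibroblast markers (8 genes) averaged 9.002 to 9.287 in TNC + TLR4i arrays, 9.166 to 9.409 in TNC + vehicle arrays and 9.146 to 9.339 in untreated arrays, above the array medians in all. Endothelial markers (12 genes) averaged 6.81 to 6.84 in TNC + TLR4i arrays, 7.08 to 7.63 in TNC + vehicle arrays, where replicate 1 was the highest, and 6.89 in untreated arrays. In bulk RNA, a different number of cells of a type and a different amount of RNA per cell cannot be told apart.

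A gene was called when its adjusted p was under 0.05 (limma, Benjamini-Hochberg over all 45037 probe sets) and its change at least 1.5-fold. In TNC + vehicle against untreated cells, 4 of the 9 genes were called higher (Saa3, Cp, Lcn2 and Slpi), where 3.74% of all genes were, and 1 was called lower (Ptx3), where 4.05% were. In TNC + TLR4i against TNC + vehicle cells, the same 4 genes were called lower, with 4.05% of all genes as background, and Ptx3 was called higher, with 4.25% as background. Between TNC + TLR4i and untreated cells, 0 of the 9 were called in either direction, where 0.0605% of all genes were called higher and 0.198% lower. The median difference of the 9 genes was 0.57, -0.56 and -0.06 in these comparisons, against 0.01, 0.00 and 0.01 over all genes. The first and second comparison share the TNC + vehicle arrays, so they are not independent of each other. The 9 genes were chosen with earlier results of these data known, so their contrast with all genes is not a test.

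**Figure D1:**
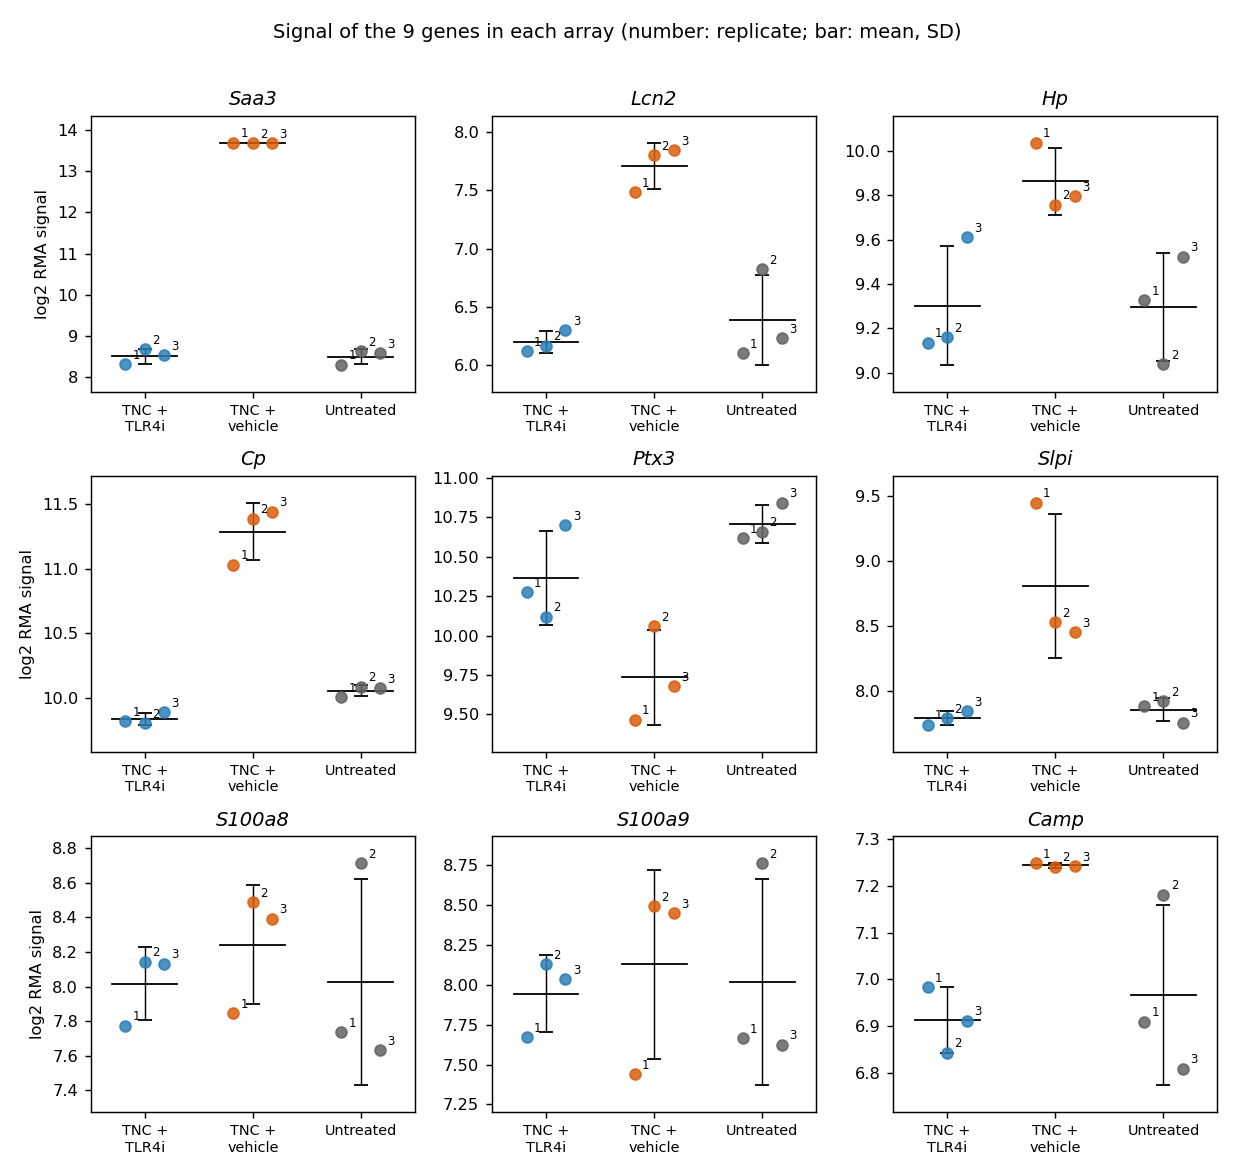
Log2 RMA signal (y axis, a separate range for each gene) of the 9 genes in each of the 9 arrays, with the groups TNC + TLR4i, TNC + vehicle and untreated from left to right. Points are arrays with their replicate number, horizontal lines are group means and error bars are SD (n = 3). Saa3 averaged 8.51 in TNC + TLR4i cells, 13.69 in TNC + vehicle cells and 8.50 in untreated cells, whereas S100a8 and S100a9 overlap between all groups.

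The promoters of the 5 called genes are shown because these genes moved with TNC in opposite directions and because C/EBP and NF-κB factors are the textbook regulators of the acute phase. Sequences are from RefSeq (build GRCm38.p6) and run 5′ to 3′ on the strand of the gene, from 250 bases before to 50 after the transcription start. Capitals mark matches to the C/EBP core TTGCNNAA on either strand and, in Ptx3 only, to the κB consensus. Of the 9 genes, 8 had an entry (9 promoters, since Cp has 2 starts with overlapping windows), and Hp was not matched. The Saa3 window lies at chr7:46715627-46715926 (- strand), Lcn2 at chr2:32387690-32387989 (- strand), the second Cp start at chr3:19956999-19957298 (+ strand), Slpi at chr2:164356458-164356757 (- strand) and Ptx3 at chr3:66219637-66219936 (+ strand).
Saa3: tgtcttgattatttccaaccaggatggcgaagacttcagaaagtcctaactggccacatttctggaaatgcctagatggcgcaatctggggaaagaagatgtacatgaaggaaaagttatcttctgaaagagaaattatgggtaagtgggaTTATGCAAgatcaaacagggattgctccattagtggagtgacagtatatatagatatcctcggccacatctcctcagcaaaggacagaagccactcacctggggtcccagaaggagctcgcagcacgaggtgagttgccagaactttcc
Lcn2: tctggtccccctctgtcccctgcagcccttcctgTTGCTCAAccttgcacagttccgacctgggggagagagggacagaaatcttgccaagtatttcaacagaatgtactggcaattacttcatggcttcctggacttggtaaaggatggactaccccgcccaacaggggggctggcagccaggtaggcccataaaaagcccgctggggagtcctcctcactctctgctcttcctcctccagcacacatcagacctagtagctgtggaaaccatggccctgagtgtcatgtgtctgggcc
Cp: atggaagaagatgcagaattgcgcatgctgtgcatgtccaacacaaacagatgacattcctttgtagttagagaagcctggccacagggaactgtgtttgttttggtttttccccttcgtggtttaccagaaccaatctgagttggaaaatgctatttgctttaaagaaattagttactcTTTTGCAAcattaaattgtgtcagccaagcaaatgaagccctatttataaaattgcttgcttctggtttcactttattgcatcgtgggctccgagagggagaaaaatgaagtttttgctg
Slpi: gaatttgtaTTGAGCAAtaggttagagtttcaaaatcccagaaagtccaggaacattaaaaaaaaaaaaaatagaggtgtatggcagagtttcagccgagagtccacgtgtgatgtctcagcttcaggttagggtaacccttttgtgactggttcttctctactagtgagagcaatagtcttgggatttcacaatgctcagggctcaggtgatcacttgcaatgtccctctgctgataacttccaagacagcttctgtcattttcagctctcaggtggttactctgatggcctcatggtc
Ptx3: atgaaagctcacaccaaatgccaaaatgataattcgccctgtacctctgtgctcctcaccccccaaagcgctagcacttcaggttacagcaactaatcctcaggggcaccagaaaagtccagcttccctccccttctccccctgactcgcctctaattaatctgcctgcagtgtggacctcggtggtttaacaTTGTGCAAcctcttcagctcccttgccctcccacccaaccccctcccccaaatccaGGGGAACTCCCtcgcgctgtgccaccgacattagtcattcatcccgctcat

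The C/EBP core was found in 6 of the 9 promoters of the set, and in 10.8% of the 32851 promoters of the reference table. It lay at bases -99 to -92 from the start in Saa3, -216 to -209 in Lcn2, -70 to -63 at the second Cp start, -241 to -234 in Slpi and -57 to -50 in Ptx3. The remaining match was in S100a9, at -236 to -229, a gene that was not called. The κB consensus was found in 1 of the 9 promoters, that of Ptx3, across the start itself, with matches from -1 to 9 on the + strand and from 1 to 10 on the - strand that overlap. It occurred in 4.51% of all promoters. A match is a string of letters in this window, not a shown binding site. Each of the 4 genes that rose and the 1 that fell had a C/EBP match in at least 1 promoter. For Cp it lay at the second start only, and the promoter of the first start, not printed here, had no match.

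Saa3 encodes the serum amyloid A form made outside the liver, an apolipoprotein of high density lipoprotein and a marker of activated macrophages. Its signal was 8.32, 8.68 and 8.53 in TNC + TLR4i arrays, 13.69, 13.68 and 13.69 in TNC + vehicle arrays and 8.30, 8.63 and 8.57 in untreated arrays. All 3 TNC + vehicle arrays stood far above the other 6, with an SD of 0.01 between them. Saa3 rose by 5.19 ± 0.09 (SE) in TNC + vehicle against untreated cells, a 36.4-fold change with an adjusted p of 2.11e-11 by limma. With the inhibitor it fell by 5.18 ± 0.09 relative to TNC + vehicle cells (limma adjusted p = 5.89e-12). The difference between TNC + TLR4i and untreated cells was 0.01, with a 95% interval of -0.21 to 0.23. The genes of the liver forms, Saa1 and Saa2, were not called in any comparison. Saa1 averaged 6.31 in TNC + TLR4i, 6.36 in TNC + vehicle and 6.34 in untreated cells, and Saa2 averaged 5.94 in TNC + TLR4i, 5.99 in TNC + vehicle and 6.03 in untreated cells. The Saa genes are close relatives, and their probe sets may bind transcripts of one another.

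Lcn2, Cp and Hp encode proteins that bind bacterial iron carriers, copper and hemoglobin. Lcn2 (lipocalin 2, which captures bacterial siderophores and so withholds iron) and Cp (ceruloplasmin, the copper-carrying ferroxidase of plasma) rose. Hp (haptoglobin, which captures free hemoglobin) missed the fold minimum by a small margin. Lcn2 measured 6.12, 6.16 and 6.30 in TNC + TLR4i arrays, 7.49, 7.80 and 7.85 in TNC + vehicle arrays and 6.10, 6.82 and 6.23 in untreated arrays. The TNC + vehicle arrays lay above all others, and replicate 2 of the untreated group was the highest of the remaining 6. Lcn2 rose by 1.33 ± 0.16 (SE) in TNC + vehicle against untreated cells, 2.51-fold with a limma adjusted p of 7.75e-05. It fell by 1.52 ± 0.10 in TNC + TLR4i against TNC + vehicle cells (limma adjusted p = 2.48e-07), and TNC + TLR4i and untreated cells differed by -0.19 (95% interval -0.50 to 0.12).

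The brightest Cp probe set measured 9.82, 9.81 and 9.89 in TNC + TLR4i arrays, 11.03, 11.38 and 11.44 in TNC + vehicle arrays and 10.01, 10.09 and 10.07 in untreated arrays. No value of the TNC + vehicle group came within the range of another group. Cp rose by 1.23 ± 0.10 (SE), 2.34-fold, in TNC + vehicle against untreated cells (limma adjusted p = 2.69e-06). It was 1.45 ± 0.10 lower in TNC + TLR4i than in TNC + vehicle cells, a log2 difference of -1.45 with a limma adjusted p of 4.48e-07. The 3 TNC + TLR4i values also lay below the 3 untreated values, with a difference of -0.22 (95% interval -0.35 to -0.08) that did not pass the adjusted threshold (limma adjusted p = 0.263).

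Of the 8 Cp probe sets, 6 were called in both of the comparisons with TNC + vehicle cells. Their differences were 0.94 to 1.23 in TNC + vehicle against untreated cells and -1.64 to -1.12 in TNC + TLR4i against TNC + vehicle cells. The 2 others had group means between 6.77 and 7.11 and differed by 0.33 and 0.22 in TNC + vehicle against untreated cells, neither of them called. In TNC + TLR4i against untreated cells, the dimmest of the 6 averaged 6.39 in TNC + TLR4i and 6.87 in untreated cells, a difference of -0.48 with a limma adjusted p of 0.0488 that did not reach 1.5-fold.

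**Figure D2:**
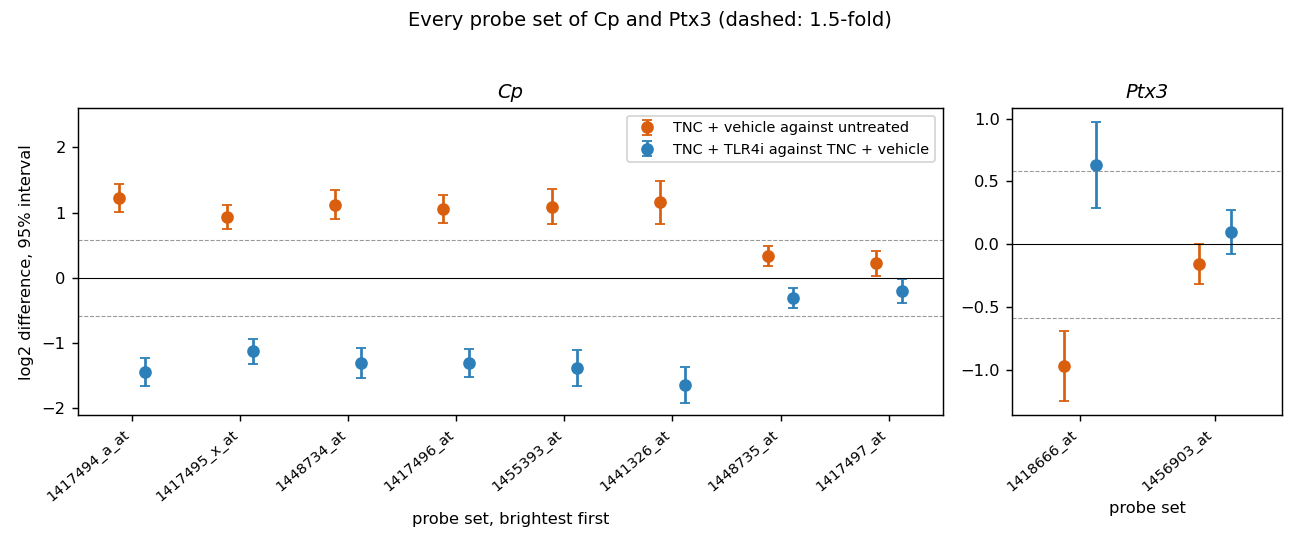
Log2 difference with its 95% interval (y axis) for every probe set of Cp and of Ptx3 (x axis), in TNC + vehicle against untreated (orange) and in TNC + TLR4i against TNC + vehicle (blue). Dashed lines mark a 1.5-fold change. The 6 brightest Cp probe sets lie between 0.94 and 1.23 in TNC + vehicle against untreated cells and the 2 dimmest at 0.33 and 0.22, while for Ptx3 the brighter probe set, at -0.97, differs from the dimmer one, at -0.16.

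Hp measured 9.14, 9.16 and 9.61 in TNC + TLR4i arrays, 10.04, 9.76 and 9.80 in TNC + vehicle arrays and 9.33, 9.04 and 9.52 in untreated arrays. The TNC + vehicle arrays were the 3 highest of the 9, with 9.76 as the lowest of them, and the highest array of the other groups was at 9.61. The difference was 0.57 ± 0.12 (SE), 1.48-fold, in TNC + vehicle against untreated cells (limma adjusted p = 0.0036) and -0.56 ± 0.12 in TNC + TLR4i against TNC + vehicle cells (limma adjusted p = 0.00467). Both passed the p threshold and neither reached 1.5-fold. By the p threshold alone, 12.1% of all genes were higher and 16% lower in the first comparison, and 17.1% were higher and 11.4% lower in the second. Without replicate 3 of the untreated group the first difference was 0.68 and was called, and without replicate 3 of the TNC + TLR4i group the second was -0.71 and was called. TNC + TLR4i and untreated cells differed by 0.01 (95% interval -0.28 to 0.30).

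Ptx3 was the 1 member that ran the other way. It encodes pentraxin 3, a long pentraxin made at sites of inflammation by macrophages, dendritic cells, fibroblasts and endothelial cells, which binds complement component C1q and microbial surfaces. The brighter probe set measured 10.28, 10.12 and 10.70 in TNC + TLR4i arrays, 9.47, 10.06 and 9.68 in TNC + vehicle arrays and 10.62, 10.66 and 10.84 in untreated arrays. All TNC + vehicle values were below all others, but the gap between the highest of them, 10.06, and the lowest TNC + TLR4i value, 10.12, was small. Ptx3 fell by 0.97 ± 0.13 (SE), 1.96-fold, in TNC + vehicle against untreated cells (limma adjusted p = 0.000143). It was higher by 0.63 ± 0.16, 1.55-fold, in TNC + TLR4i against TNC + vehicle cells (limma adjusted p = 0.0109).

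The higher Ptx3 signal with the inhibitor rested on single arrays. The difference was 0.46 without replicate 3 of TNC + TLR4i and 0.50 without replicate 1 of TNC + vehicle, both under 1.5-fold. With the limma variance fitted as a robust trend over signal, the difference of 0.63 had an adjusted p of 0.125. TNC + TLR4i cells differed from untreated cells by -0.34 (95% interval -0.60 to -0.08, limma adjusted p = 0.432). The second Ptx3 probe set averaged 6.68 in TNC + TLR4i, 6.58 in TNC + vehicle and 6.74 in untreated cells and was not called, with differences of -0.16 in TNC + vehicle against untreated cells and 0.10 in TNC + TLR4i against TNC + vehicle cells.

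Marker genes of fibroblasts, a cell type that also makes Ptx3, were measured on the same arrays. The fibroblast marker averages given above overlapped between the groups, and 0 of those 8 genes were called in any of the 3 comparisons. Of the 8, Dcn (decorin) and Col3a1 (a collagen chain), named here after their values had been seen, passed the p threshold in at least 1 comparison without reaching 1.5-fold. Dcn averaged 9.15 in TNC + TLR4i, 9.70 in TNC + vehicle and 9.24 in untreated cells, with differences of 0.46 in TNC + vehicle against untreated cells (limma adjusted p = 0.00108) and -0.55 in TNC + TLR4i against TNC + vehicle cells (0.0075). Col3a1 averaged 11.78 in TNC + TLR4i, 11.52 in TNC + vehicle and 11.99 in untreated cells, with differences of -0.47 (limma adjusted p = 0.0335) and 0.26 (0.346) in these comparisons. The Dcn differences had the opposite sign to those of Ptx3, and the Col3a1 differences the same sign.

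Within groups, each array was set against the average of the other arrays of its group. In TNC + TLR4i replicate 2, Ptx3 was at -0.37 and the median of the 8 fibroblast genes at -0.25, with 1 of the 8 higher. In TNC + TLR4i replicate 3, Ptx3 was at 0.50 and the median at 0.09, with 6 of the 8 higher. The signs differed in TNC + TLR4i replicate 1, with Ptx3 at -0.13 and the median at 0.14 (7 of 8 higher). They also differed in TNC + vehicle replicate 1 (Ptx3 -0.40, median 0.18, 7 of 8 higher) and replicate 2 (0.49, -0.13, 1 of 8 higher). In TNC + vehicle replicate 3 both were negative, with Ptx3 at -0.09 and the median at -0.12 (1 of 8 higher). In untreated replicates 1, 2 and 3 the signs were the same. Ptx3 was at -0.13, -0.07 and 0.20 there, and the median at -0.12, -0.10 and 0.19, with 0, 3 and 6 of the 8 higher. Each array is set against the others of its group, so the deviations within a group are not independent of each other. The part of fibroblast transcripts in the Ptx3 signal was not tested.

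Slpi, the secretory leukocyte protease inhibitor, blocks neutrophil elastase and cathepsin G and is itself antimicrobial. It measured 7.74, 7.79 and 7.84 in TNC + TLR4i arrays, 9.44, 8.53 and 8.45 in TNC + vehicle arrays and 7.88, 7.92 and 7.75 in untreated arrays. Every TNC + vehicle array was above every other array, and replicate 1 was 0.96 above the average of replicates 2 and 3. Slpi rose by 0.95 ± 0.20 (SE), 1.94-fold, in TNC + vehicle against untreated cells (limma adjusted p = 0.00445) and fell by 1.02 ± 0.20 in TNC + TLR4i against TNC + vehicle cells (limma adjusted p = 0.0023).

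Replicate 1 of TNC + vehicle also had more signal for endothelial markers. Of 12 such genes, 11 were higher there than on average in replicates 2 and 3, and the median of the 12 differences was 0.45. The 1 gene that was lower there was Kdr, which encodes a receptor for vascular endothelial growth factor. Kdr measured 7.28, 7.51 and 7.51 in TNC + TLR4i arrays, 9.001, 9.578 and 9.586 in TNC + vehicle arrays and 7.63, 7.84 and 7.80 in untreated arrays. It was the 1 gene of the 12 called in TNC + vehicle against untreated cells, higher by 1.63 (limma adjusted p = 3.53e-06), and in TNC + TLR4i against TNC + vehicle cells it was called lower (-1.96), together with the cadherin gene Cdh5 (-0.63, limma adjusted p = 0.0268). Both were named after their values had been seen. The part of endothelial transcripts in the Slpi signal was not tested. Without TNC + vehicle replicate 1, the Slpi difference was 0.64 in TNC + vehicle against untreated cells (limma adjusted p = 0.000162). In TNC + TLR4i against TNC + vehicle cells it was -0.70 (limma adjusted p = 3.67e-05), and both stayed called. The array left out is the one farthest out for Slpi itself, so these values describe how much it weighs and no more. With the robust trend variance and all arrays, the adjusted p was 0.0983 in the first comparison and 0.0778 in the second, so neither was called. TNC + TLR4i and untreated cells differed by -0.06 (95% interval -0.21 to 0.08).

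**Figure D3:**
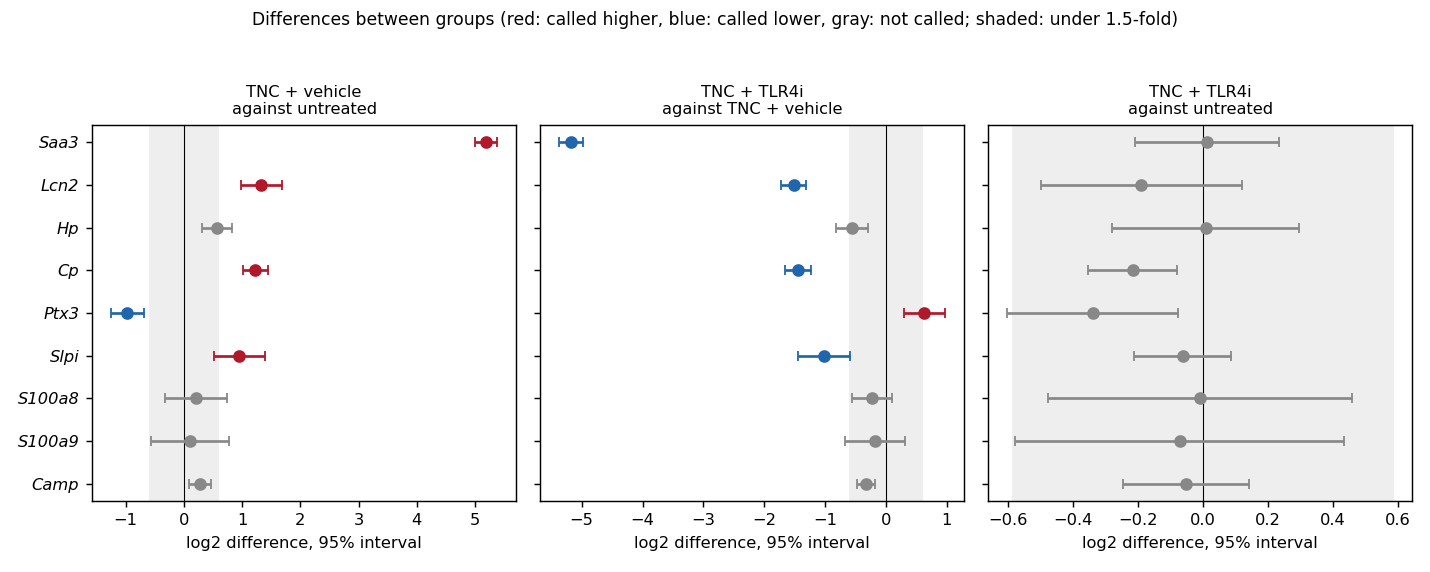
Log2 difference with its 95% interval (x axis, a separate range in each panel) for the 9 genes (y axis) in the 3 comparisons, each as the first named group minus the second. Red marks genes called higher, blue genes called lower and gray genes not called, and the shaded band covers changes under 1.5-fold. Differences run from -0.97 (Ptx3) to 5.19 (Saa3) in TNC + vehicle against untreated cells, and from -0.34 (Ptx3) to 0.01 (Saa3 and Hp) in TNC + TLR4i against untreated cells.

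S100a8 and S100a9 encode the calcium-binding proteins that pair as calprotectin, which sequesters zinc and manganese and is stored in large amount by neutrophils and monocytes. Neither was called in any comparison. S100a8 measured 7.77, 8.14 and 8.13 in TNC + TLR4i arrays, 7.85, 8.49 and 8.39 in TNC + vehicle arrays and 7.74, 8.71 and 7.63 in untreated arrays. S100a9 measured 7.67, 8.13 and 8.03 in TNC + TLR4i arrays, 7.44, 8.49 and 8.45 in TNC + vehicle arrays and 7.66, 8.76 and 7.63 in untreated arrays. For both genes replicate 2 was the highest array of each group. The highest of the 9 arrays was untreated, replicate 2, and all groups overlapped.

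In TNC + vehicle against untreated cells the difference was 0.21 for S100a8 (95% interval -0.32 to 0.75, limma adjusted p = 0.61) and 0.11 for S100a9 (-0.56 to 0.78, limma adjusted p = 0.855). Both intervals hold 0 as well as a 1.5-fold change, so neither a change of that size nor its absence can be read from them, given the spread of these genes within groups. In TNC + TLR4i against TNC + vehicle cells the difference was -0.23 for S100a8 (-0.55 to 0.10) and -0.18 for S100a9 (-0.67 to 0.31). Between TNC + TLR4i and untreated cells it was -0.01 for S100a8 (-0.48 to 0.46) and -0.07 for S100a9 (-0.58 to 0.43).

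The spread of both genes lay within the groups. The pooled SD of a group was 0.42 for S100a8 and 0.53 for S100a9, against 0.12 to 0.33 for the other 7 genes. Untreated replicate 2 was 1.03 above the average of untreated replicates 1 and 3 for S100a8 and 1.12 above it for S100a9. TNC + vehicle replicate 1 differed from the others of its group by -0.59 for S100a8 and -1.03 for S100a9. Without untreated replicate 2, the difference of S100a8 in TNC + vehicle against untreated cells was 0.56 (limma adjusted p = 0.0283) and that of S100a9 was 0.48 (0.219). Without TNC + vehicle replicate 1, the difference in TNC + TLR4i against TNC + vehicle cells was -0.42 for S100a8 (limma adjusted p = 0.0163) and -0.53 for S100a9 (0.00686). None of these reached 1.5-fold, and the arrays left out are those farthest out for these very genes, so the values describe how much 1 array weighs and no more.

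Ngp, a granule protein of neutrophil precursors, differed between arrays in the same way, at 7.43, 7.52 and 7.84 in TNC + TLR4i, 7.32, 8.09 and 8.08 in TNC + vehicle and 7.60, 8.52 and 7.31 in untreated arrays. Of all 18193 genes, those with the smallest root mean square difference from S100a8 in centered values over the 9 arrays were S100a9 (0.13), Ngp (0.14) and Chil3 (0.17), and those closest to S100a9 were S100a8 (0.13), Ngp (0.15) and Chil3 (0.20). Chil3 is a chitinase-like protein of neutrophil precursors and macrophages. This search was added after the values of S100a8 and S100a9 had been seen. The granule protein gene Ltf was likewise highest in untreated replicate 2, at 7.30, against 6.80 and 6.62 in the other untreated arrays. Of the 9 measured genes of the neutrophil list, 4 were higher in that array than on average in untreated replicates 1 and 3. The median of these differences was -0.01. On the untreated arrays, Cxcr2, Elane, Mpo, Prtn3 and Fcnb of this list lay between 6.16 and 6.91, near the array medians. Whether these genes are above background is not known, so the count and the median say little about neutrophil-lineage transcripts. The list mean was 7.32 in that array, against 7.19 and 7.12 in untreated replicates 1 and 3. In TNC + vehicle it was 7.15, 7.32 and 7.19 in replicates 1, 2 and 3. The part of neutrophil-lineage transcripts in the S100a8 and S100a9 signals was not tested.

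**Figure D4:**
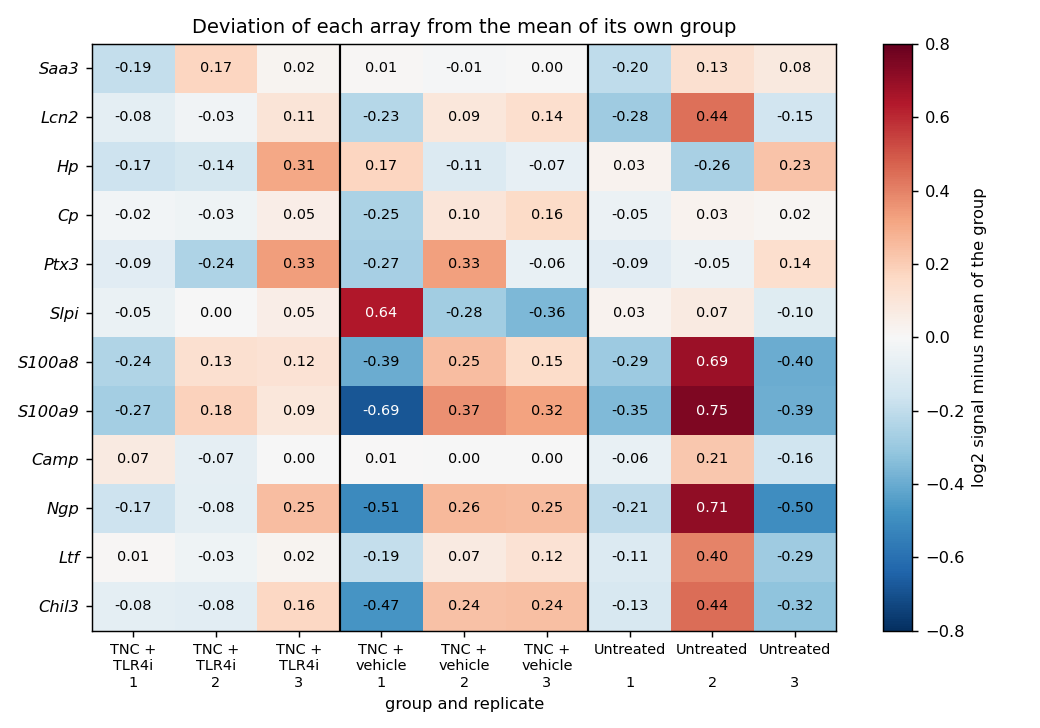
Log2 signal of each array (columns, by group and replicate) minus the mean of its own group for the 9 genes and for Ngp, Ltf and Chil3, chosen after their values had been seen (rows). TNC + vehicle replicate 1 is at -0.39 for S100a8 and -0.69 for S100a9 but at 0.64 for Slpi. Untreated replicate 2 is at 0.69 for S100a8, 0.75 for S100a9 and 0.71 for Ngp. It is also above its group mean for Lcn2 (0.44), Camp (0.21), Saa3 (0.13) and Slpi (0.07). For Cp it is at 0.03, for Ptx3 at -0.05 and for Hp at -0.26.

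Camp encodes the precursor of the cathelicidin peptide, a membrane-disrupting antimicrobial of neutrophil granules. It measured 6.98, 6.84 and 6.91 in TNC + TLR4i arrays, 7.25, 7.24 and 7.24 in TNC + vehicle arrays and 6.91, 7.18 and 6.81 in untreated arrays. The TNC + vehicle arrays were nearly identical and above the rest. The difference was 0.28 ± 0.09 (SE), 1.21-fold, in TNC + vehicle against untreated cells (limma adjusted p = 0.0455) and -0.33 ± 0.07 in TNC + TLR4i against TNC + vehicle cells (limma adjusted p = 0.00314). Both passed the p threshold and neither was called for want of fold. TNC + TLR4i and untreated cells differed by -0.05 (95% interval -0.25 to 0.14).

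For each called member, the 3 genes with the most similar pattern were taken as those with the smallest root mean square difference of centered log2 values over the 9 arrays. Saa3 was closest to the chemokine gene Ccl5 (0.16), then to Clec4e, the C-type lectin receptor Mincle (0.39), and to the chemokine gene Ccl12 (0.49). Ccl5 averaged 8.58 in TNC + TLR4i, 13.66 in TNC + vehicle and 8.77 in untreated cells. Lcn2 was closest to Parp11 (0.15), Cgas, the cytosolic DNA sensor (0.16), and Dusp2, a MAP kinase phosphatase (0.16). Cp was closest to the ubiquitin ligase genes Trim21 (0.07) and Marchf5 (0.08) and to Pnpt1, a mitochondrial exoribonuclease (0.08). Slpi was closest to Pdpn (0.09), the membrane glycoprotein podoplanin, F11r (0.16), a junctional adhesion molecule, and Col5a3 (0.17), a collagen chain. Ptx3 was closest to Id4 (0.11), Rhobtb3 (0.14) and Sfrp2 (0.16), a secreted modulator of Wnt signaling that averaged 9.95 in TNC + TLR4i, 9.13 in TNC + vehicle and 10.30 in untreated cells.

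Genes around the 9 members were counted in related lists. Over all genes, 3.74% were called higher and 4.05% lower in TNC + vehicle against untreated cells. In TNC + TLR4i against TNC + vehicle cells these shares were 4.25% and 4.05%, and in TNC + TLR4i against untreated cells 0.0605% and 0.198%. Of 22 measured inducers and regulators of the acute phase, 9 were called higher and 3 lower in TNC + vehicle against untreated cells, with a median difference of 0.46. Among those 12 genes the changes of greatest size were rises of the cytokine genes Il1b (3.94), Tnf (2.67) and Il6 (1.98) and of Socs3 (1.77), the feedback inhibitor of STAT3 signaling. With the inhibitor, 10 of the 22 were called lower and 3 higher relative to TNC + vehicle cells, with Il1b at -4.28, Tnf at -2.79, Il6 at -2.17 and Socs3 at -1.99. The 3 genes called lower in TNC + vehicle against untreated cells, which were also the 3 called higher with the inhibitor, were named after their values had been seen. They were Il6ra (-1.24 in TNC + vehicle against untreated cells, 1.28 in TNC + TLR4i against TNC + vehicle cells) and Il6st (-0.60 and 0.59 in the same order), which encode the receptor chains for interleukin-6, and Cebpa (-1.02 and 1.08), a C/EBP factor of the myeloid lineage. Of these 22 genes, 0 were called in TNC + TLR4i against untreated cells.

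Of 14 measured receptors and partners, 2 were called higher and 1 lower in TNC + vehicle against untreated cells. The shares over all genes were 3.74% and 4.05%. Fpr2, a receptor at which serum amyloid A and cathelicidin peptides act, averaged 9.77 in TNC + TLR4i, 13.22 in TNC + vehicle and 10.34 in untreated cells, a difference of 2.87 in TNC + vehicle against untreated cells. Tlr2, for which serum amyloid A is a described ligand, rose by 1.11. Slc40a1, the iron exporter ferroportin that works together with the ferroxidase Cp, fell by 0.84, opposite to Cp. In TNC + TLR4i against TNC + vehicle cells, Fpr2 was at -3.45 and Tlr2 at -1.27, and Slc40a1 (1.81) and Cd36 (0.76), a scavenger receptor named here after its value had been seen, were called higher. Slc40a1 averaged 10.07 in TNC + TLR4i, 8.26 in TNC + vehicle and 9.10 in untreated cells, and it was called higher in TNC + TLR4i against untreated cells, by 0.97 (limma adjusted p = 0.000914), the only gene of the related lists called there.

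Of 19 other acute phase genes measured, 1 was called in TNC + vehicle against untreated cells, Cfb, complement factor B. Over all genes, 3.74% were called higher and 4.05% lower in TNC + vehicle against untreated cells. Cfb averaged 7.40 in TNC + TLR4i, 9.84 in TNC + vehicle and 7.12 in untreated cells, and rose by 2.72 in TNC + vehicle against untreated cells (limma adjusted p = 2.97e-07). It fell by 2.44 in TNC + TLR4i against TNC + vehicle cells. The median of these 19 genes in TNC + vehicle against untreated cells was 0.05. Of 12 granule antimicrobial genes measured, Mmp9, the gelatinase, was called higher by 0.97 in that comparison and lower in TNC + TLR4i against TNC + vehicle cells (-0.95), and the median of the 12 in TNC + vehicle against untreated cells was 0.00. Of 12 other genes with S100 names, 0 were called in any of the 3 comparisons. These include S100pbp, which encodes an S100-binding protein rather than an S100 protein. Of 9 other genes of the whey acidic protein family, to which Slpi belongs, 0 were called either. Beside the low shares over all genes, counts of 0 or 1 in lists this short say little about these families.

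**Figure D5:**
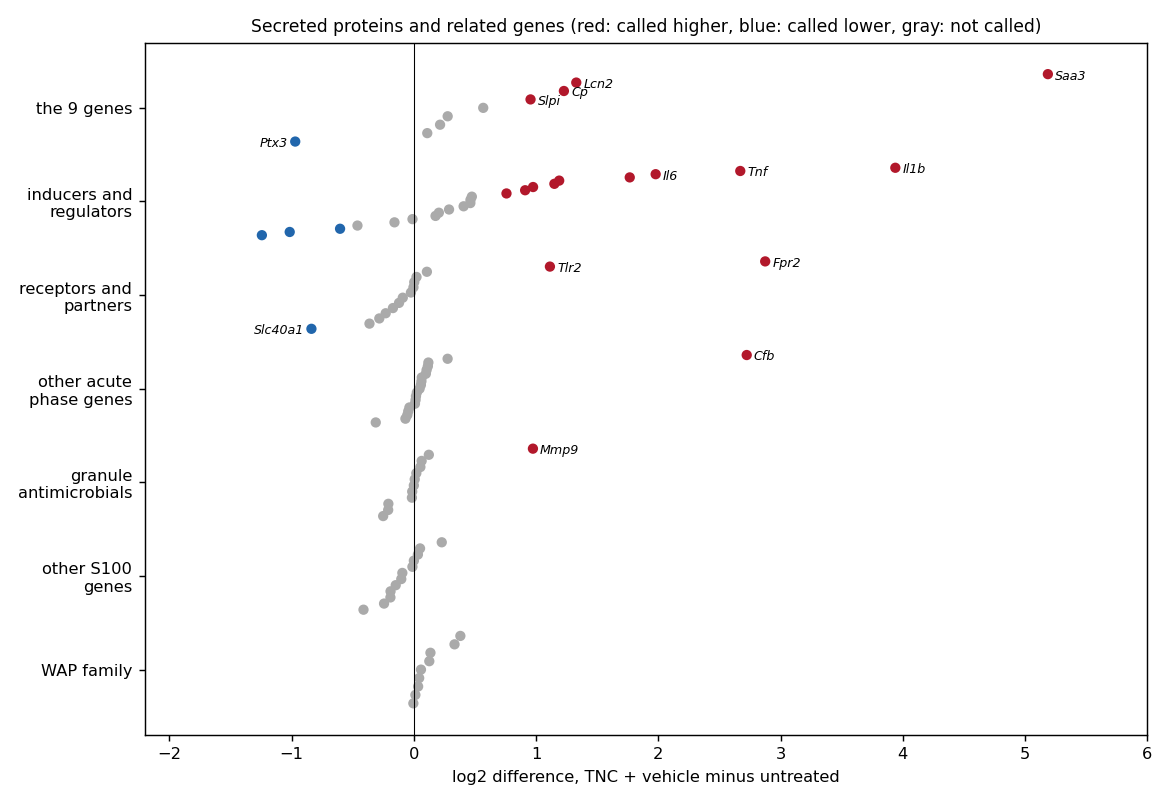
Log2 difference in TNC + vehicle minus untreated cells (x axis) for the 9 genes and for the genes of 6 related lists (y axis, 1 point a gene, spread vertically by rank). Red points were called higher, blue points lower and gray points not called. Of the 9 genes 4 are red and 1 is blue, while the lists of other acute phase and granule genes hold 1 red point each (Cfb at 2.72 and Mmp9 at 0.97). Over all genes, 3.74% were called higher and 4.05% lower.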

How the data were processed

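RNA of the 9 samples was hybridized to Affymetrix mouse expression arrays. The authors normalized the arrays by RMA in Chipster, and the deposited values are log2 signals of 45101 probe sets, between 5.44 and 14.69. With 3 arrays a group, precision is limited by their number. The 64 control probe sets of the array were left out. The platform annotation gave 1 gene for 34945 of the 45037 others, several for 932 and no gene for 9160, and names were used for the first kind alone. Where a gene had several probe sets, the one with the highest mean over the 9 arrays stood for it. For each pair of groups, the 6 arrays were fitted with limma 3.58.1 under R 4.3.3 (lmFit, then eBayes), two-sided, with Benjamini-Hochberg adjustment over all 45037 probe sets. Calls needed an adjusted p under 0.05 together with a change of 1.5-fold or more. The fits were tested on simulated data. The members, gene lists and rules were chosen with earlier results of these data known.

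Named genes were all members with every probe set, up to 4 called genes with the greatest change in TNC + vehicle against untreated cells from each related list, and the 3 genes nearest in pattern to each called member. The related lists held 22 other acute phase genes, 14 granule genes (antimicrobials and proteases) and 14 genes with S100 names (S100pbp among them). They also held 9 genes of the whey acidic protein family, 16 receptors and partners and 24 inducers and regulators. Genes without a probe set of their own were not counted. Alternatives were a fit over all 9 arrays, the replicate number as a block, a filter on dim probe sets, array centering, cyclic loess, a robust trend variance, array weights, averaging over the probe sets of a gene, other thresholds, limma's treat, and each array left out in turn. Promoters were searched on both strands for TTGCNNAA and for the κB consensus.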

Additional observations from a re-analysis of the deposited data

How the results depend on the processing

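The 4 rises in TNC + vehicle against untreated cells and the 4 falls with the inhibitor kept their direction under every alternative run. Calls were lost for Slpi with the robust trend variance and with treat in both comparisons, and with a 2-fold minimum in TNC + vehicle against untreated cells. The fall of Ptx3 in that comparison was not called, leaving 0 members called lower, with the mean of its probe sets (-0.56), a 2-fold minimum, or treat against 1.5-fold. Its higher signal in TNC + TLR4i against TNC + vehicle cells was not called, leaving 0 members called higher, with cyclic loess (0.54), the robust trend variance, the mean of its probe sets (0.36), an adjusted p under 0.01, a 2-fold minimum, or treat, and leaving out 1 array gave 0 to 1. Hp was called in both comparisons with cyclic loess, at 0.62 in TNC + vehicle against untreated and -0.63 in TNC + TLR4i against TNC + vehicle cells, it was also called without TNC + vehicle replicate 2 (0.62 and -0.61) or 3 (0.60 and -0.59), and with no minimum fold both Hp and Camp were called in both. Over all probe sets, deviations of same-numbered arrays correlated at -0.10 to 0.14 and those of differently numbered arrays at -0.12 to 0.10. Such a correlation does not decide whether single genes follow the replicate number. With the replicate number as a block the calls were again 4 higher and 1 lower in TNC + vehicle against untreated cells. The cause of these changes was not tested.

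No member was called in TNC + TLR4i against untreated cells under any alternative, and small differences changed sign. Cyclic loess gave -0.0098 for Saa3 and -0.013 for Hp, and array weights gave 0.040 for S100a8. Leaving out 1 array gave -0.091 to 0.11 for Saa3, -0.33 to 0.028 for Lcn2, -0.15 to 0.12 for Hp, -0.21 to 0.33 for S100a8, -0.27 to 0.30 for S100a9 and -0.13 to 0.053 for Camp. In TNC + vehicle against untreated cells it gave -0.086 to 0.48 for S100a9. The related lists had 19, 12, 12, 9, 14 and 22 measured genes. Of these together, 13 were called higher and 4 lower in TNC + vehicle against untreated cells, where 3.74% and 4.05% of all genes were. With no minimum fold 22 were called higher and 12 lower, a rule that 12.1% of all genes passed upward and 16% downward.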
